A study of Harpegnathos saltator with 36 samples.

Results

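Egfr, the epidermal growth factor (EGF) receptor, and Vein, a secreted ligand of that receptor, were followed across the castes and tissues of the ant Harpegnathos saltator. They are the rows LOC105191569 (Egfr) and LOC105181399 (RefSeq symbol vn) of both count tables, chosen by name as a receptor and ligand upstream of mitogen-activated protein kinase (MAPK), and they make up 2 of the 12654 genes counted. RefSeq lists both as protein-coding, with 3 transcripts for Egfr and 2 for vn.

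The libraries came from single adult females, all about 6 months old by the study's methods, with 4 libraries for each caste and tissue. Revertants were gamergates that had been isolated and then policed by workers in an established colony until they stopped laying eggs, gamergates were workers that had become egg-laying pseudo-queens over 3 months in a queenless colony, and workers were non-reproductive ants of the same transition colonies. Revertants thus differed from the other castes in colony as well as in reproductive state, and the effects of colony and caste cannot be told apart in their comparisons. The tissues were the whole ovary and the central brain without optic lobes. By the study's account, ovaries of gamergates carry chains of growing egg chambers, whereas those of revertants and workers stay at an early stage. In these bulk samples fewer cells of a type and less RNA per cell therefore cannot be told apart.

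Vein is a neuregulin-like ligand that binds Egfr, a receptor tyrosine kinase at the cell surface. In Drosophila the activated receptor signals through adaptor proteins, the small GTPase Ras and the kinases Raf, MEK and ERK to transcription factors of the ETS family, and several of the genes it switches on, such as argos and sprouty, dampen the pathway in turn. The receptor acts in the follicle cells of the fly ovary to pattern the egg, and Vein from visceral muscle signals to neighbouring cells in the fly gut.

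The libraries held between 1339043 and 23882325 counts. In the brain, library size was tied to caste: all 4 revertant libraries and workers 1 and 3 exceeded 3500000 counts, whereas all 4 gamergate libraries and workers 2 and 4 did not. In the ovary all 4 gamergate libraries exceeded that limit, as did revertants 2 and 3 and worker 3. All brain libraries ran on a different sequencing lane from all ovary libraries, so lane and tissue cannot be told apart. The tissues matched their labels by marker genes: 5 germline genes summed to 1211 to 1926 counts per 1000000 counts of the library (CPM) in ovary libraries, against 146 to 185 CPM in brain libraries, and 7 neuronal genes summed to 204 to 765 CPM in ovary libraries, against 3060 to 5082 CPM in brain libraries.

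Egfr was read at its highest in the ovary, and gamergates had the lowest mean of each tissue. Egfr counts in the ovary were 361, 2094, 1381 and 523 in revertants, 2108, 507, 3576 and 1473 in gamergates and 821, 686, 2338 and 357 in workers. As CPM, without further scaling, these were 217, 283, 245 and 251 CPM in revertants, 133, 94.7, 150 and 111 CPM in gamergates and 244, 295, 311 and 192 CPM in workers. All 4 gamergate ovaries thus lay below every revertant and every worker ovary on this scale.

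**Figure D1:**
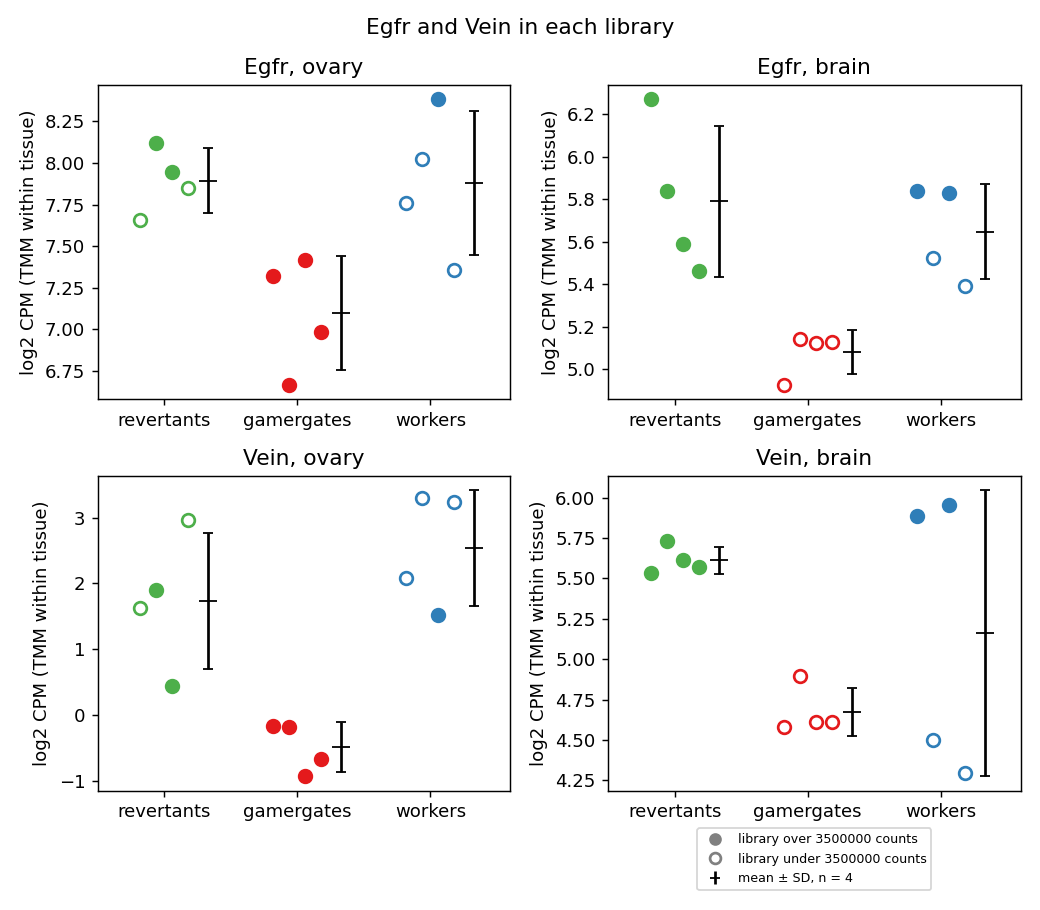
Level of Egfr (top) and Vein (bottom) in each ovary (left) and brain (right) library, as log2 CPM scaled within a tissue by the trimmed mean of M values (TMM), by caste. Points are libraries, filled where the library exceeds 3500000 counts, and bars are the mean and SD of 4. The gamergate mean is the lowest in each of the 4 panels, and in the brain Vein panel the worker libraries fall into a high and a low pair that follow library size.

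In log2 CPM scaled by TMM within a tissue, ovarian Egfr averaged 7.89 ± 0.19 in revertants, 7.10 ± 0.34 in gamergates and 7.88 ± 0.43 in workers (SD, n = 4 each). Egfr was higher in revertant than in gamergate ovaries, with a log2 fold change of 0.93 ± 0.18 (SE; adjusted p = 0.00246, quasi-likelihood test of edgeR, Benjamini-Hochberg adjusted over 9228 genes), which is 1.9-fold, and the groups did not overlap. In this comparison 29% of all genes tested were called higher and 56% did not overlap between the groups, so the call is a common one in the ovary. Egfr was lower in gamergate than in worker ovaries, with a log2 fold change of -0.93 ± 0.24 (adjusted p = 0.00827, edgeR). Here 28.9% of the 9267 genes tested were called lower. The scaled groups overlapped in that comparison, because gamergate 3 reached 7.42 and worker 4 only 7.36, and the exact two-sided permutation test of the log2 CPM gave p = 0.0571, where the smallest it can give is 0.0286.

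Revertant and worker ovaries could not be separated by Egfr. The log2 fold change was -0.02 ± 0.22 (adjusted p = 1, edgeR) and the groups overlapped. In that comparison edgeR called 0 of 8667 genes, 377 had an unadjusted p under 0.05, DESeq2 called 29, and 2.15% did not overlap.

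In the brain the receptor was read at lower levels, and gamergates were again lowest. Egfr counts were 463, 670, 308 and 169 in revertant brains, 55, 62, 66 and 62 in gamergate brains and 261, 76, 210 and 63 in worker brains. Divided by library size these were 69.2, 51.9, 45.96 and 41.1 CPM in revertants, 31.1, 37.3, 36.7 and 35.4 CPM in gamergates and 53.0, 50.1, 53.1 and 47.05 CPM in workers. Each gamergate brain lay below every revertant and every worker brain, the small worker libraries included.

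Brain Egfr averaged 5.79 ± 0.36 log2 CPM in revertants, 5.08 ± 0.10 in gamergates and 5.65 ± 0.22 in workers (SD, n = 4 each). It was higher in revertants than in gamergates, the log2 fold change being 0.75 ± 0.17 (adjusted p = 0.00348, edgeR; 1.68-fold), in a comparison in which 29.9% of 8987 genes were called higher (57.4% in either direction) and 50.7% did not overlap. When a term for library size class entered a fit of all 12 brains, that log2 fold change was 0.37 ± 0.28 and was no longer called (adjusted p = 0.545, edgeR). Revertant and gamergate brains share no size class, so the size term rests on the workers alone. With it 73 of 9148 genes were called in this comparison, against 5157 of 8987 without it, so the loss of the call is not particular to Egfr.

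Between gamergate and worker brains the log2 fold change of Egfr was -0.59 ± 0.15, which missed the threshold after adjustment (adjusted p = 0.0928, edgeR). The groups did not overlap, as for 10.6% of the 8481 genes tested, while 0.719% were called lower and 0.33% higher (1.05% in all), and the exact permutation test gave the smallest p it can give, 0.0286. DESeq2 called the difference (log2 fold change -0.61 ± 0.19, adjusted p = 0.0386), and so did edgeR without worker 4 (-0.66, adjusted p = 0.028). Among the libraries under 3500000 counts, the 4 gamergates averaged 5.08 log2 CPM and workers 2 and 4 averaged 5.46, with a log2 fold change of -0.38 ± 0.16 (adjusted p = 0.194, edgeR). Neuronal marker genes moved the same way. Their summed level was 4704 to 5082 CPM in revertant brains, 3060 to 3296 CPM in gamergate brains and 3983 to 4870 CPM in worker brains. Of these markers 7 of 7 were called higher in revertants than in gamergates, beside 29.9% of all genes. In gamergates over workers 2 of 7 were called lower, beside 0.719% of all genes. The summed level of 7 fat body genes moved the other way, at 16504 to 21319 CPM in revertant, 34794 to 87783 CPM in gamergate and 17360 to 21699 CPM in worker brains. As single genes the fat body genes did not move together. Of 6 tested, 2 were called higher and 2 lower in revertants than in gamergates, beside 29.9% and 27.4% of all genes. Of 5 tested, 2 were called higher in gamergates than in workers, beside 0.33% of all genes. The genes high in gamergates were Vgn, the yolk protein gene vitellogenin, at 14.76 ± 0.88 log2 CPM in gamergate and 9.60 ± 1.69 in worker brains (SD, n = 4 each), and Hex70a, a hexamerin storage protein gene. The part of either marker set in the level of Egfr was not tested.

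Revertant and worker brains had an Egfr log2 fold change of 0.14 ± 0.19 (adjusted p = 0.66, edgeR), with overlapping groups. Of the 9360 genes tested there, edgeR called 0, 1521 had an unadjusted p under 0.05, DESeq2 called 58, and 9.64% did not overlap.

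Vein showed the opposite tissue pattern: it was read well in the brain and hardly at all in gamergate ovaries. Vein counts in the ovary were 5, 26, 6 and 17 in revertants, 8, 3, 5 and 4 in gamergates and 15, 25, 18 and 20 in workers. Most gamergate ovaries were sequenced more deeply than the others and still had few reads. As CPM Vein stood at 3.01, 3.52, 1.06 and 8.15 CPM in revertants, 0.506, 0.560, 0.209 and 0.302 CPM in gamergates and 4.46, 10.8, 2.39 and 10.7 CPM in workers. The study had singled out Vein in these ovary libraries as a gene that differs between castes. It also reported lower mRNA of Egfr, Vein and a further ligand, Spitz, in fat bodies of gamergates, a tissue not analysed here. Both genes were thus picked with this series known, so the ovarian tests of Vein and of Egfr are not independent evidence of direction.

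So few reads carry a wide counting error. The exact Poisson interval (95%, counting error only) of the gamergate with 3 reads ran up to 1.64 CPM, and that of the worker with the lowest level started at 1.42 CPM, so these intervals meet. The lowest revertant, with 6 reads, had an interval of 0.391 to 2.32 CPM, which overlaps those of all 4 gamergates.

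Ovarian Vein averaged 1.73 ± 1.04 log2 CPM in revertants, -0.48 ± 0.38 in gamergates and 2.53 ± 0.88 in workers (SD, n = 4 each). It was lower in gamergate than in worker ovaries, at a log2 fold change of -3.94 ± 0.57, or 15.4-fold (adjusted p = 4.93e-04, edgeR), and the groups did not overlap, as for 55.4% of the genes tested. Gamergates held 3 to 8 Vein reads and workers 15 to 25, so Vein passed the filter on low counts here through the workers. Its fold change was therefore not ranked among those of other genes. The difference of mean log2 CPM was smaller, at -3.02. Library size moved with caste here too: all 4 gamergate libraries were over the limit of 3500000 counts, and worker 3, the 1 worker library over it, had the lowest Vein level of its caste. With a size class term the log2 fold change was -2.81 ± 0.64 (adjusted p = 0.00382, edgeR), and among libraries over the limit, with worker 3 alone against the 4 gamergates, it was -2.67 ± 0.57 (adjusted p = 0.00853, edgeR; added after seeing the data, with the single worker assumed to vary like the gamergates).

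Between revertant and gamergate ovaries Vein fell under the filter on low counts and has no value in the edgeR fit of those libraries. The mean log2 CPM differed by 2.21 ± 0.55 (SE), the groups did not overlap, and the exact two-sided permutation test gave 0.0286, the smallest p possible with 4 against 4. Of the 9228 genes tested in that comparison, 56% did not overlap. Without the filter edgeR gave a log2 fold change of 3.08 ± 0.63 (adjusted p = 0.00318). Among the libraries over 3500000 counts, revertants 2 and 3 against the 4 gamergates, it gave 2.58 ± 0.59 (adjusted p = 0.00593). Revertant and worker ovaries overlapped in Vein, with a log2 fold change of -0.76 ± 0.66 (adjusted p = 1, edgeR).

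**Figure D2:**
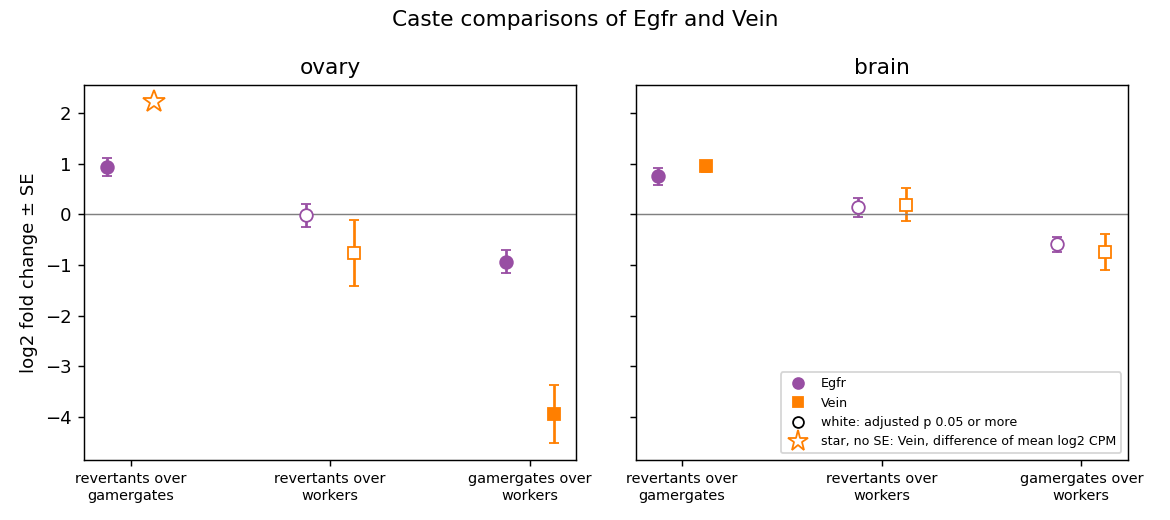
Log2 fold change with its standard error for Egfr (circles) and Vein (squares) in the 3 caste comparisons of the ovary (left) and the brain (right), from edgeR. White symbols have an adjusted p of 0.05 or more, and the star is the difference of mean log2 CPM (2.21) of Vein, which the filter left out of that fit. The ovarian Vein value of gamergates over workers, -3.94, is the farthest from 0.

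The level of Vein in the ovary moved with that of muscle genes. The summed level of 14 muscle genes (troponins, tropomyosins, myosin heavy chain and other sarcomere proteins) was 1691 to 5748 CPM in revertant ovaries, 706 to 786 CPM in gamergate ovaries and 1505 to 11523 CPM in worker ovaries. Of these genes, 11 of 13 tested were called higher in revertants than in gamergates, beside 29% of all genes. In gamergates over workers 13 of 14 were called lower, beside 28.9% of all genes, with a median log2 fold change of -3.39. All 14 had reads in every ovary library. Per 100000 muscle reads, Vein had 52.3, 146, 62.9 and 201 reads in revertants, 64.5, 77.8, 29.6 and 40.5 reads in gamergates and 73.9, 93.5, 159 and 111 reads in workers, so that the range of gamergates overlapped those of both other castes on this scale. The overlap with workers rested on gamergate 2, which had 3 Vein reads. In brain libraries Vein had 544 to 5161 reads per 100000 muscle reads, far more than in any ovary. The part of muscle tissue in the ovarian level of Vein was not tested.

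Of 3 haemocyte markers, 2 (Pxn and PPO) were called higher in revertant than in gamergate ovaries, where 29% of all genes were, and Hml was not called (0.0352 ± 0.24 on the log2 scale). All 3 were called lower in gamergate than in worker ovaries, as were 28.9% of all genes. In that comparison 1 of 6 neuronal markers tested was called higher and 2 lower, among them Syn at -3.62 ± 0.47. Of 3 glial markers tested, 0 were called higher and 1 lower, Eaat2 at -2.79 ± 0.20. In revertants over gamergates 3 of 6 neuronal markers were called higher and 1 lower, and 2 of 3 glial markers higher and 0 lower. Fat body markers were called in both directions in each comparison. The 5 germline markers had log2 fold changes of -0.73 to 0.0457 in revertants over gamergates and -0.43 to 0.94 in gamergates over workers, 0 of them with an unadjusted p under 0.05 by edgeR. Their summed level was 1211 to 1703 CPM in revertant, 1530 to 1627 CPM in gamergate and 1276 to 1926 CPM in worker ovaries.

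**Figure D3:**
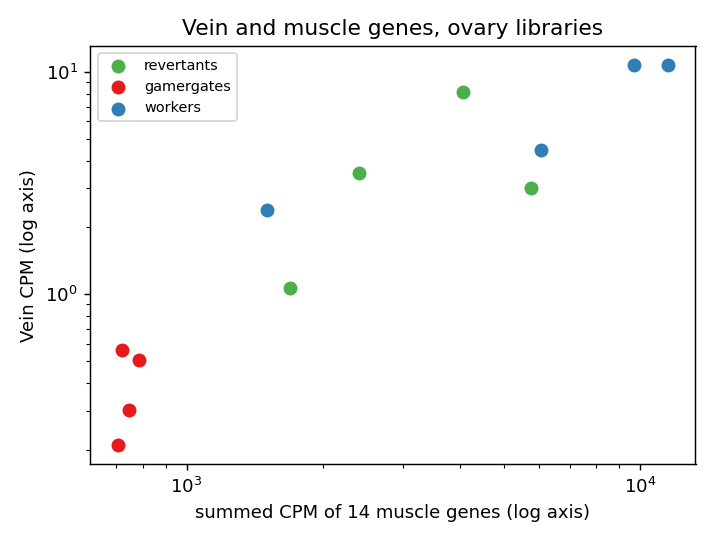
Level of Vein (vertical, CPM, log axis) against the summed level of 14 muscle genes (horizontal, CPM, log axis) in the 12 ovary libraries, coloured by caste. The 4 gamergates lie together at the lower left, with Vein between 0.209 and 0.560 CPM, and workers reach 10.8 CPM at the upper right.

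In the brain Vein followed library size more closely than caste. Its counts were 276, 621, 313 and 182 in revertant brains, 43, 52, 46 and 43 in gamergate brains and 270, 37, 229 and 29 in worker brains. As CPM these were 41.2, 48.1, 46.7 and 44.2 CPM in revertants, 24.3, 31.3, 25.6 and 24.5 CPM in gamergates and 54.8, 24.4, 57.9 and 21.7 CPM in workers. Workers 1 and 3, both large libraries, stood above every other brain, and workers 2 and 4, both small ones, stood at the level of the lowest gamergate or under it.

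The mean log2 CPM of brain Vein was 5.61 ± 0.09 in revertants, 4.67 ± 0.15 in gamergates and 5.16 ± 0.88 in workers (SD, n = 4 each). Vein was called higher in revertants than in gamergates, with a log2 fold change of 0.94 ± 0.10 (adjusted p = 3.16e-05, edgeR; 1.92-fold) and groups that did not overlap. Of the 8987 genes tested there, 29.9% were called higher and 50.7% did not overlap. That call was lost once the fit of 12 brains held a size class term, where the log2 fold change was -0.59 ± 0.18 (adjusted p = 0.16, edgeR), of the opposite sign. The term rests on the workers, the only caste with brains of both size classes. Most genes lost their call with it (73 of 9148 called, against 5157 of 8987 without it).

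The other brain comparisons of Vein also turned within a size class. Gamergates against all 4 workers gave -0.74 ± 0.36 (adjusted p = 0.294, edgeR), but against the 2 workers of their own size class 0.28 ± 0.22 (adjusted p = 0.507), with means of 4.67 log2 CPM in gamergates and 4.40 in those workers. Revertants against all workers gave 0.19 ± 0.32 (adjusted p = 0.728, edgeR), and against the 2 workers of their own size class -0.31 ± 0.09 (adjusted p = 0.509), with means of 5.61 log2 CPM in revertants and 5.92 in those workers. A caste order of Vein in the brain cannot be told apart from library size in these counts. Egfr in worker brains was less split by size: workers 1 and 3 averaged 5.84 log2 CPM and workers 2 and 4 averaged 5.46, both above the highest gamergate at 5.14.

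Set side by side on a common scale of all 24 libraries, the levels of Egfr ran from revertant ovaries (7.86 ± 0.25 log2 CPM) and worker ovaries (7.85 ± 0.47) through gamergate ovaries (7.06 ± 0.38) to revertant brains (5.81 ± 0.36), worker brains (5.68 ± 0.20) and gamergate brains (5.12 ± 0.11; SD, n = 4 each). Of the neighbours in this order, gamergate ovaries and revertant brains did not overlap, nor did worker and gamergate brains, and the other 3 pairs of neighbours overlapped. Vein ran from revertant brains (5.63 ± 0.08 log2 CPM), worker brains (5.19 ± 0.87) and gamergate brains (4.71 ± 0.15) down to worker ovaries (2.52 ± 0.85), revertant ovaries (1.75 ± 1.02) and gamergate ovaries (-0.35 ± 0.32). Here gamergate brains and worker ovaries did not overlap, nor did revertant and gamergate ovaries.

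Egfr was higher in the ovary than in the brain within each caste. The log2 fold change of ovary over brain was 1.89 ± 0.20 in revertants (adjusted p = 6.16e-05), 1.84 ± 0.17 in gamergates (adjusted p = 5.71e-07) and 2.19 ± 0.24 in workers (adjusted p = 4.34e-05), all by edgeR. Vein was lower in the ovary than in the brain, with -4.01 ± 0.44 in revertants (adjusted p = 6.74e-05), -6.12 ± 0.29 in gamergates (adjusted p = 1.44e-09) and -2.87 ± 0.54 in workers (adjusted p = 0.0014), by edgeR. Such calls were frequent: 33% of genes were called higher and 32.4% lower in ovaries of revertants (65.4% in all), 45.3% and 39.5% in those of gamergates (84.8% in all) and 31% and 26.7% in those of workers (57.7% in all).

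Whether the caste effect itself differed between tissues was tested as an interaction. For Vein the difference of gamergates over workers was more negative in the ovary than in the brain by -3.13 ± 0.68 on the log2 scale (adjusted p = 0.00248, edgeR), and that of revertants over gamergates was larger in the ovary by 2.02 ± 0.55 (adjusted p = 0.00848, edgeR). Of all genes, 18.8% were called lower in the first interaction (35.8% in either direction) and 19% higher in the second (42.2% in either direction). The brain values in them carry the link with library size described above. For Egfr the interactions were -0.29 ± 0.30 (adjusted p = 0.489, edgeR) and -0.0038 ± 0.25 (adjusted p = 1, edgeR), so no difference between tissues was detected.

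Because both genes are counted in the same library, the ratio of their reads does not depend on scaling between libraries. In the ovary this ratio still moved with library size. In the ovary Vein had 1.39, 1.24, 0.434 and 3.25 reads per 100 Egfr reads in revertants, 0.38, 0.592, 0.14 and 0.272 in gamergates and 1.83, 3.64, 0.77 and 5.6 in workers. In the brain it had 59.6, 92.7, 102 and 108 reads per 100 Egfr reads in revertants, 78.2, 83.9, 69.7 and 69.4 in gamergates and 103, 48.7, 109 and 46.03 in workers. The tissues did not overlap in this ratio, and the genes' lengths, which also set it, are the same in every library. Every ovary library over 3500000 counts had a ratio of 1.24 or less, and every one under that limit had 1.39 or more. All gamergate ovaries were over the limit. The part of library size in the ovarian ratio was not tested across all castes.

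The log2 ratio in the ovary, with 1 read added to each count, was lower in gamergates than in workers, at -2.71 ± 0.77 (SE; exact permutation p = 0.0286, 0.171 after adjustment over the 6 comparisons). The groups only just failed to overlap, with worker 3 at -6.94 and gamergate 2, which had 3 Vein reads, at -6.99. The added read weighs most where Vein has few reads. Revertants exceeded gamergates by 1.90 ± 0.73 (exact permutation p = 0.0571, adjusted 0.171), and the lowest revertant lay within the range of gamergates. Among ovary libraries over 3500000 counts, revertants 2 and 3 exceeded the gamergates by 1.12 ± 0.82 (exact permutation p = 0.267, unadjusted). In the brain the differences were 0.23 ± 0.20 for revertants over gamergates, 0.30 ± 0.38 for revertants over workers and 0.08 ± 0.34 for gamergates over workers, and all 3 pairs overlapped. No comparison of the 6 passed after adjustment.

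**Figure D4:**
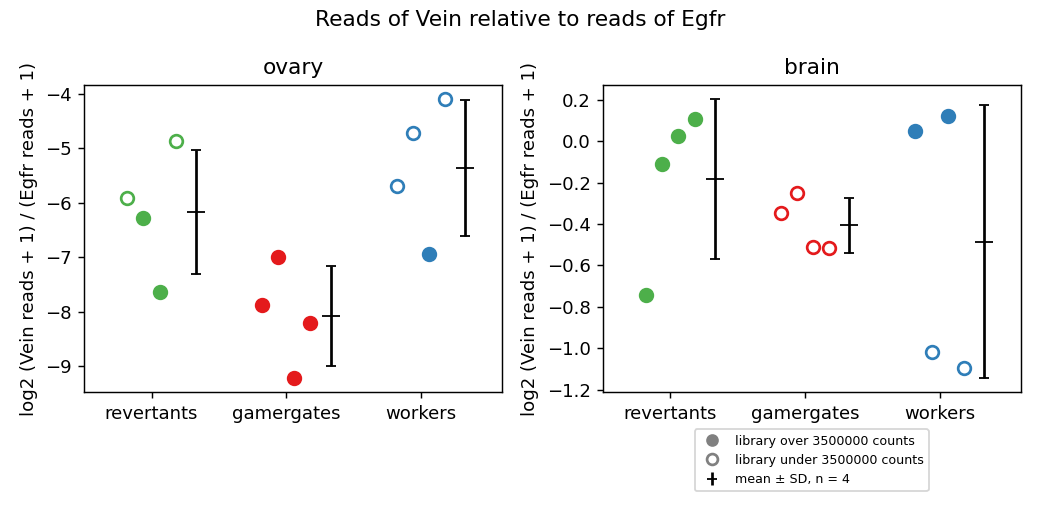
Log2 ratio of Vein to Egfr reads, 1 read added to each count, in each ovary (left) and brain (right) library by caste. Points are libraries, filled where the library exceeds 3500000 counts, and bars are the mean and SD of 4. Ovary ratios centre on -6.17 in revertants, -8.07 in gamergates and -5.36 in workers, and the 2 lowest brain ratios are those of the small worker libraries.

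Further genes of the pathway were taken from a list matched by RefSeq symbol. It held 23 genes besides Egfr and Vein, and all of them were tested in the ovary. The ligands Spitz, Gurken and Keren and the ligand processing protein Star had no RefSeq symbol that identifies them. They were not analysed. Between revertant and gamergate ovaries 16 were called higher and 1 lower, beside 29% and 28.7% of all genes, with a median log2 fold change of 0.75 beside 0.01 over all genes tested. Between gamergate and worker ovaries 1 was called higher and 16 lower, beside 29.4% and 28.9% of all genes, with a median of -0.62 beside -0.01. With a size class term, 1 was called higher and 10 lower in gamergates over workers. These comparisons share the gamergate libraries. Between revertants and workers edgeR called 0 of the 23 in either tissue (1 in the ovary and 5 in the brain had an unadjusted p under 0.05), and DESeq2 also called 0. All these values are mRNA levels, and MAPK activity was not measured in these libraries. By western blot the study reported more phosphorylated MAPK in gamergates than in workers, in both fat body and ovary.

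Among the inhibitors that act outside the cell or at its surface, aos (argos), which in Drosophila sequesters EGF ligands, had a log2 fold change of 1.40 ± 0.50 in revertant over gamergate ovaries (adjusted p = 0.0395, edgeR) and -1.41 ± 0.27 in gamergate over worker ovaries (adjusted p = 0.00227, edgeR). The gene kek5, placed in this group by its kekkon family name only, had 1.29 ± 0.24 and -1.75 ± 0.18 in the same comparisons. Whether kek5 acts on Egfr was not tested. Both rhomboid-family genes, rho-4 and rho-6, named for membrane proteases of which some release EGF ligands in flies, were called in the same directions, with 2.05 ± 0.36 and 1.76 ± 0.45 in revertants over gamergates.

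Of the 4 negative regulators at the receptor or at Ras, 3 were called higher in revertant than in gamergate ovaries and lower in gamergate than in worker ovaries. Sprouty (sty), an intracellular inhibitor that the pathway induces in flies, averaged 7.98 ± 0.70 log2 CPM in revertant, 6.41 ± 0.26 in gamergate and 7.57 ± 0.41 in worker ovaries (SD, n = 4 each). Cbl, a ubiquitin ligase that acts on active receptors, and Nf1, which switches Ras off, had -1.03 ± 0.23 and -1.15 ± 0.15 in gamergates over workers. The Ras GTPase-activating protein vap was not called in either comparison (-0.09 ± 0.15 in revertants over gamergates and 0.03 ± 0.11 in gamergates over workers).

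Of the adaptors, drk and Shc were called in both ovary comparisons, with log2 fold changes of 0.40 ± 0.14 and 0.56 ± 0.13 in revertants over gamergates. Of the core cascade, Raf was called lower in gamergate than in worker ovaries at -1.27 ± 0.17, and so were the MEK gene Dsor1 (-0.50 ± 0.15), the scaffold cnk (-0.62 ± 0.13) and the ERK phosphatase Mkp3 (-1.65 ± 0.22). The scaffold ksr was the exception, called higher in gamergates at 0.70 ± 0.12. Ras85D and rl, the ERK gene itself, were not called, with 0.07 ± 0.19 (adjusted p = 0.768, edgeR) and -0.31 ± 0.13 (adjusted p = 0.0638, edgeR).

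Among transcription factors, pnt (pointed), the ETS activator downstream of ERK in flies, averaged 7.20 ± 0.29 log2 CPM in revertant, 5.47 ± 0.18 in gamergate and 6.88 ± 0.30 in worker ovaries (SD, n = 4 each). For pnt gamergates did not overlap with either other caste, as for 56% of genes against revertants and 55.4% against workers. Its opponent aop was not called (-9.0e-04 ± 0.24 in gamergates over workers; adjusted p = 0.998, edgeR).

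**Figure D5:**
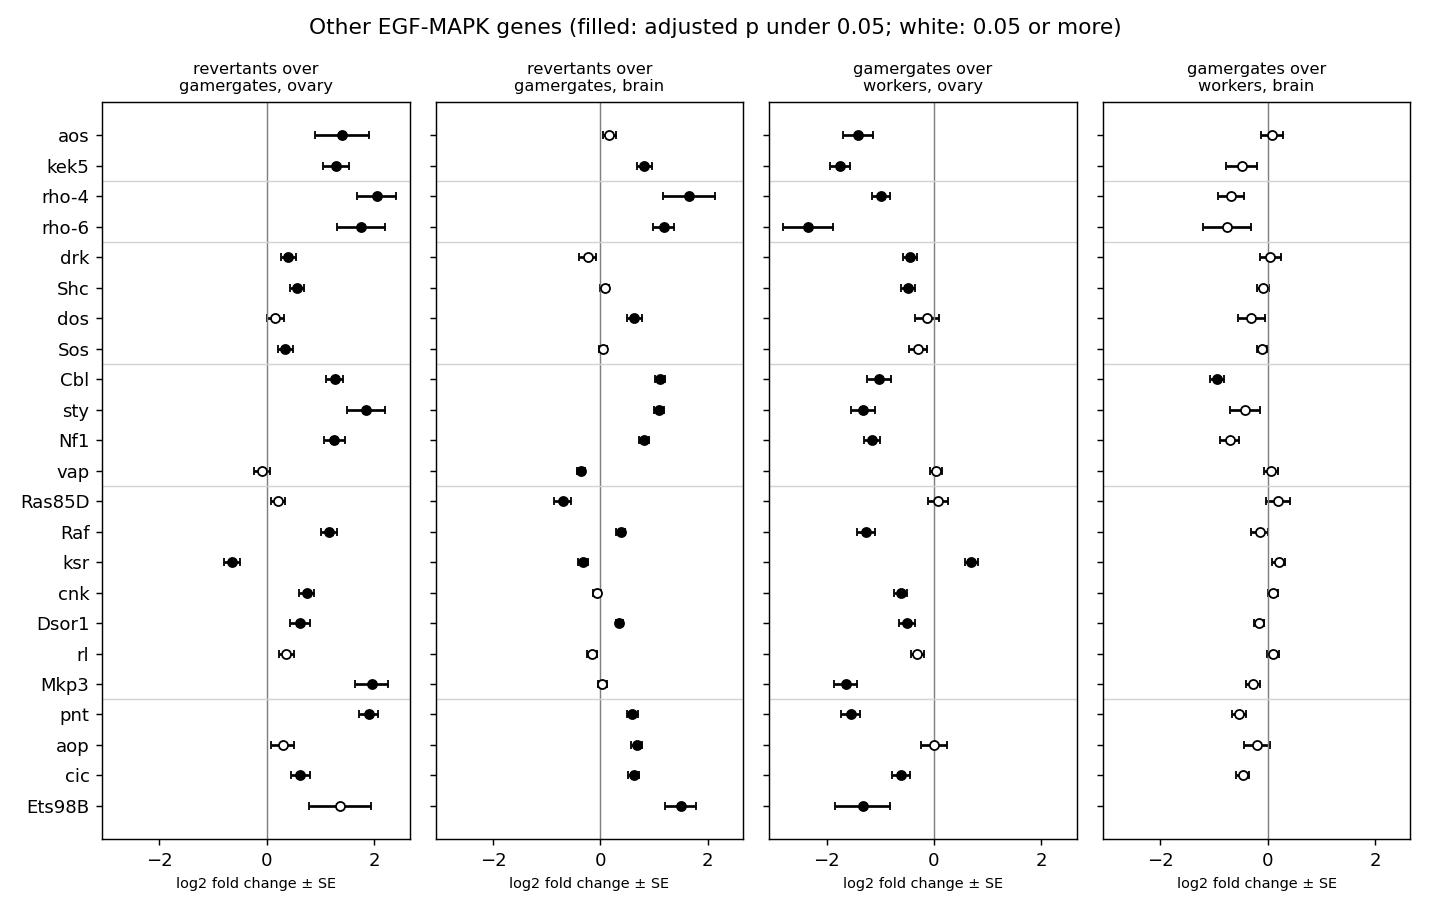
Log2 fold change with its standard error (horizontal) of 23 other EGF-MAPK genes (rows, in groups from inhibitors at the top to transcription factors at the bottom) in 4 comparisons. Filled points have an adjusted p under 0.05. Most ovary points lie right of 0 in revertants over gamergates (16 called higher, 1 lower) and left of 0 in gamergates over workers (1 higher, 16 lower), and 1 gene, Ets98B, was not tested in the last panel.

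In the brain 13 of the 23 were called higher and 3 lower in revertants than in gamergates, beside 29.9% and 27.4% of all genes. Cbl, sty and Nf1 had log2 fold changes of 1.10 ± 0.09, 1.10 ± 0.09 and 0.82 ± 0.09, and vap, Ras85D and ksr were the 3 called lower. With a size class term 1 of the 23 was called, and 73 of 9148 genes in all. Between gamergates and workers 1 of 22 tested was called, Cbl, lower in gamergates at -0.94 ± 0.12 (adjusted p = 0.00642, edgeR), with 6.95 ± 0.15 log2 CPM in gamergate and 7.89 ± 0.20 in worker brains (SD, n = 4 each).

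A further 4 genes of the pathway could be named only through a gene table of the study of which the part at hand holds its lowest p-values in the brain, and they were counted apart for that reason. Of these, 3 were called higher and 1 lower in revertant than in gamergate ovaries, and 2 higher and 1 lower in revertant than in gamergate brains, where 57.8% and 57.4% of all genes were called in either direction. In gamergates over workers 3 were called lower in the ovary and 0 in the brain by edgeR (2 of the 4 had an unadjusted p under 0.05 there), against 58.3% and 1.05% of all genes called in either direction.

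The genes whose levels ran most like those of the receptor and its ligand were found by Pearson's correlation of log2 CPM, as a description. Over all 24 libraries the 3 nearest to Egfr were LOC105188780 (a signal-induced proliferation-associated 1-like protein; r = 0.98), LOC105186705 (cordon-bleu; r = 0.98) and Mcr (r = 0.98), and the 3 nearest to Vein were LOC105182063 (a collagen alpha chain; r = 0.99), LOC105187450 (an ATP-binding cassette protein; r = 0.99) and nAChRalpha1 (an acetylcholine receptor subunit; r = 0.98). The tissues enter these values, and Egfr and Vein had an r of -0.70 with each other over the same libraries. Within the 12 ovary libraries r between Egfr and Vein was 0.55, and the nearest genes were LOC105184686, nonC and LOC105184259 to Egfr (r = 0.97 to 0.98) and 7B2, LOC105186760 and LOC105183871 to Vein (r = 0.96 to 0.97). Within the 12 brain libraries, where library size enters as well, r between Egfr and Vein was 0.73. The nearest genes there were knockout, raptor and LOC105185395 (a trehalose transporter) to Egfr (r = 0.94 to 0.96) and LOC105191861 (a metabotropic glutamate receptor), LOC105185970 (a GAS2-like protein) and LOC105192566 (a histone methyltransferase) to Vein (r = 0.98).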

How the data were processed

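RNA was taken from single ants, made into poly(A), strand-specific libraries and sequenced. The authors trimmed reads with Trimmomatic, aligned them to genome version 8.5 with STAR (2.5.3a in the submitters' processing notes) and deposited raw read counts per gene; the counting tool and its strand setting are not given in the sources used here. Of the samples, the 24 of ovary and brain were used and 12 of fat body were not analysed here. Each pair of castes in a tissue was tested in R 4.3.3 with edgeR 4.0.16 (filterByExpr, TMM, quasi-likelihood test, Benjamini-Hochberg adjustment over all genes, threshold 0.05), with interactions and tissue contrasts fitted over both tissues. Standard errors come from the log2 fold change and F. Log2 CPM used a prior count of 2, and exact permutation tests were two-sided. DESeq2 1.42.0 was an alternative, and edgeR was tested on simulated data. Gene names come from RefSeq (12632 of 12654 IDs matched), without coordinates since its assembly is of another version. Marker sums are CPM by library size alone, and likeness was computed over genes whose mean reached 5 CPM. Named genes were both members in every comparison, pathway genes of the list, mainly those called, and the 3 most alike per set of libraries. The members, lists and size limit were chosen with earlier results of these data known. Beyond single ants per library, the number of colonies is not given in the sources used here, so p-values measure the spread between these libraries.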

Additional observations from a re-analysis of the deposited data

Results flagged for a closer look

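Vein had a caste effect that differed between tissues. In the test of that difference, gamergates relative to workers gave -3.13 (ovary minus brain, log2 scale), and revertants relative to gamergates gave 2.02, with adjusted p of 0.00248 and 0.00848 by edgeR. In the brain library size moved with caste, and in the ovary the summed level of muscle genes moved with Vein, with the values given above. Their part in these differences was not tested.

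Single libraries stood apart in 2 of the 18 groups of 4 examined (Egfr, Vein and their ratio by caste and tissue), where chance gives about 1 group in 20. Gamergate brain 1 had the lowest Egfr of its group, 4.93 log2 CPM, below the other 3 at 5.12 to 5.14. Gamergate brain 2 had the highest Vein of its group, 4.90 log2 CPM, above the other 3 at 4.58 to 4.61.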

How the results depend on the processing

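Of 420 recomputed values for Egfr, Vein and their ratio, 378 kept their direction and side of the threshold. The size class as a term in the fit of 12 libraries moved the brain values: Egfr of revertants over gamergates was 0.37 and not called, and that of revertants over workers was -0.0114, while Vein was -0.59 in revertants over gamergates, -0.31 in revertants over workers and 0.28 in gamergates over workers, against 0.94, 0.19 and -0.74 without the term. Within a size class, brain Vein was -0.31 in revertants over workers and 0.28 in gamergates over workers, brain Egfr was -0.0049 in revertants over workers, ovarian Egfr was 0.0764 in revertants over workers, and the log2 ratio of reads in the brain was -0.27 in revertants over workers and 0.65 in gamergates over workers. Pathway genes called with the size term numbered 1 in revertants over gamergates in the brain (16 without it), 11 in gamergates over workers in the ovary (17 without it) and 2 in gamergates over workers in the brain (1 without it), where the small libraries alone gave 2 and DESeq2 and the fit of all 3 castes gave 4 each. DESeq2 called brain Egfr of gamergates over workers (-0.61). The Egfr interaction of revertants over gamergates lay near 0 and changed sign: it was 0.0939 with DESeq2 size factors, 0.0932 with the DESeq2 test, 0.46 with library size only and 0.0448 without the filter. Scaling by library size only took the median log2 fold change of all genes to between -0.18 and 0.11. Adding 2 reads in place of 1 took the ratio of gamergates over workers in the ovary to -2.54 (exact permutation p = 0.0571, unadjusted). Causes were not tested.

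Same-numbered libraries were not treated as pairs, because the study's methods state no pairing. The correlation of their deviations from the group means exceeded 0.1 in 5 of 24 pairs of castes and in 6 of 12 pairs of ovary and brain. Between castes 14 of 48 libraries correlated best with their own number, and between ovary and brain 16 of 24, which is most of them. Whether an ovary and a brain of the same number came from the same ant is not given in the sources used here. The main tissue and interaction fits treat them as independent. With the replicate number as a block, Egfr of revertants over workers in the ovary was 0.0114 and the Egfr interaction of revertants over gamergates was 0.0524, both changed in sign near 0. The block left every other Egfr and Vein value that it gave on its side of the threshold, and pathway genes called in the ovary numbered 13 in revertants over gamergates and 16 in gamergates over workers (17 each without it).

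Leaving out each library gave -0.16 to 0.17 for ovarian Egfr of revertants over workers, -0.66 to -0.53 for brain Egfr of gamergates over workers (called only without worker 4), -0.0478 to 0.23 and -0.0196 to 0.44 for brain Egfr and Vein of revertants over workers, and -0.12 to 0.24 for the Egfr interaction of revertants over gamergates. For the log2 ratio of gamergates over workers it gave -3.24 to -2.29 in the ovary (unadjusted exact permutation p over 0.05 in 6 of 8) and -0.1247 to 0.28 in the brain (negative without worker 2 or 4), and for that of revertants over gamergates in the brain 0.13 to 0.41 (unadjusted exact p under 0.05 without revertant 1). All other leave-one-out values kept their direction and side of the threshold. With at least 10 counts in every library Vein had no value in the ovary. Revertant and gamergate brains share no size class, so no fit within one could be had. Among ovaries over 3500000 counts, with worker 3 as the only worker (chosen after seeing the data), gamergates over workers gave -1.31 for Egfr, -2.67 for Vein and 16 pathway genes called, and revertants over workers gave -0.34, -0.13 and 0. In revertants over gamergates in the ovary 5 of 8 leave-one-out fits kept Vein, with 2.90 to 3.55.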
